A study of Gallus gallus with 3 samples.

Results

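The genes described here are the splicing factors and related RNA-binding proteins of DT40, a lymphoma line of chicken B cells. They were chosen by name alone: all genes whose chicken symbol, found through the RefSeq accession of the probe, begins with HNRNP, SRSF, SF3, U2AF, PRPF, SNRP, LSM, DDX, DHX, RBM, CPSF, CSTF, CNOT or EXOSC (the helicase and LSM names followed by a digit). This gave 61 genes out of 3870 named on the array, each with 1 probe, while the chicken gene table holds 178 such genes. They comprise 6 heterogeneous nuclear ribonucleoproteins (hnRNPs), 7 SR proteins and 5 spliceosome factors of the SF3, U2AF and PRPF families. A further 5 have SNRP or LSM names and are mostly Sm and Sm-like proteins. Then there are 13 RNA helicases, 13 RBM proteins and 4 factors of 3′ end processing. The last are 6 subunits or partners of the CCR4-NOT deadenylase and 2 exosome subunits.

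Most vertebrate genes are transcribed as precursors whose introns are removed by the spliceosome, an assembly of small nuclear ribonucleoproteins. U2AF and the SF3 proteins recognise the 3′ end of an intron and its branch site, SR proteins bind exons and favour their inclusion, and hnRNPs often oppose them. DEAD-box and DEAH-box helicases rearrange the complexes, cleavage and polyadenylation factors form the 3′ end, and in the cytoplasm CCR4-NOT shortens the poly(A) tail before decay. B cells are known to depend on this machinery, for instance in the switch between membrane-bound and secreted antibody heavy chains.

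Cells were exposed for 4 h to BP5 at 0.02 µg/ml, to BSP-II at 2 µg/ml, or to neither peptide (0 µg/ml). The labels call both peptides bursal-derived, the bursa being the birds' site of B cell formation, and all groups were grown in the same serum-supplemented medium. The design text mentions repeated experiments on separately grown cells, but no label ties an array to one of them. Each group had 1 Cy3-labelled array, so no difference below has a replicate check, no test between groups exists, and spread between cultures is unknown. The control array was scanned apart from the peptide arrays, which shared a scan. An effect of the scan and one of a peptide cannot be told apart in ratios to untreated cells. Because RNA came from whole cultures, fewer cells with a transcript and less transcript per cell cannot be told apart.

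Probes well above background made up 38.0% of the BP5 array, 39.6% of the BSP-II array and 46.6% of the control array. Of 10 B cell markers with a probe, 6, 6 and 7 were well above background with BP5, with BSP-II and in untreated cells. BTK, SYK, LYN, IKZF1, POU2AF1, JCHAIN and LY86 were among those detected, whereas the defining B cell genes PAX5, EBF1 and CD79B reached that level on no array. None of 3 macrophage and granulocyte markers was, against 2 of 5 T cell markers (CD247, CD3D), 1 of 2 erythroid and thrombocyte markers (TUBB1) and 2 of 7 fibroblast, epithelial and endothelial markers (CLDN3, EPCAM). The summed level of the B cell markers, in log2 units relative to each array's 75th percentile, was 7.58 with BP5, 7.73 with BSP-II and 7.48 in untreated cells. That of the T cell markers was 3.71, 4.12 and 3.96 in the same order, that of the erythroid and thrombocyte markers 2.33, 2.65 and 3.32, and that of the fibroblast, epithelial and endothelial markers 2.37, 2.36 and 1.96. The part of these markers in the results was not tested. Nor was how well the probes of PAX5, EBF1 and CD79B read their transcripts, so their lack of detection does not show lack of expression.

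Of the 61 genes, 53 were well above background with BP5, 55 with BSP-II and 56 in untreated cells. Among the 3870 genes named on the array these numbers were 2590, 2627 and 2794. On all 3 arrays 53 of the 61 genes were well above background, including every hnRNP, spliceosome factor, 3′ end factor and exosome subunit on the list. RBM24 and DDX4, genes known from muscle and germ cells, did not reach that level on any of the arrays, and neither did DDX27, CNOT4 and LSM7. SRSF11 was detected in untreated cells alone, at a processed signal of 54.2, and DDX47 was detected with BSP-II and in untreated cells but not with BP5. Both lay so near the detection limit that no fold can be given against the arrays without detection. For DDX47 the log2 ratio of BSP-II to untreated cells was 0.53 ± 0.38.

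After BP5, 4 of the 53 members measured on both arrays were at least 2-fold lower than in untreated cells and 0 were at least 2-fold higher. They were RBM3, CNOT8, U2AF1 and HNRNPH1, which make up 7.55% of the members. Among the 2578 genes measured, 3.76% passed 2-fold downward, 2.91% upward and 6.67% in either direction. After BSP-II, 1 of 55 members, RBM10, was at least 2-fold lower and 0 were higher. Among 2615 genes measured, 2.14% passed downward, 2.79% upward and 4.93% in either direction. The median log2 ratio of the members was -0.11 with BP5 (-0.09 over all genes) and 0.10 with BSP-II (0.01 over all genes). The quartiles of the members lay at -0.42 and 0.17 with BP5 and at -0.27 and 0.32 with BSP-II, against -0.37 and 0.20 and against -0.24 and 0.29 over all genes. Both comparisons share the control array. The ratios of 37 of 53 members with BP5 and of 46 of 55 with BSP-II lay within 0.5 of 0. This count was not made over all genes, so it does not set the members apart from them.

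**Figure D1:**
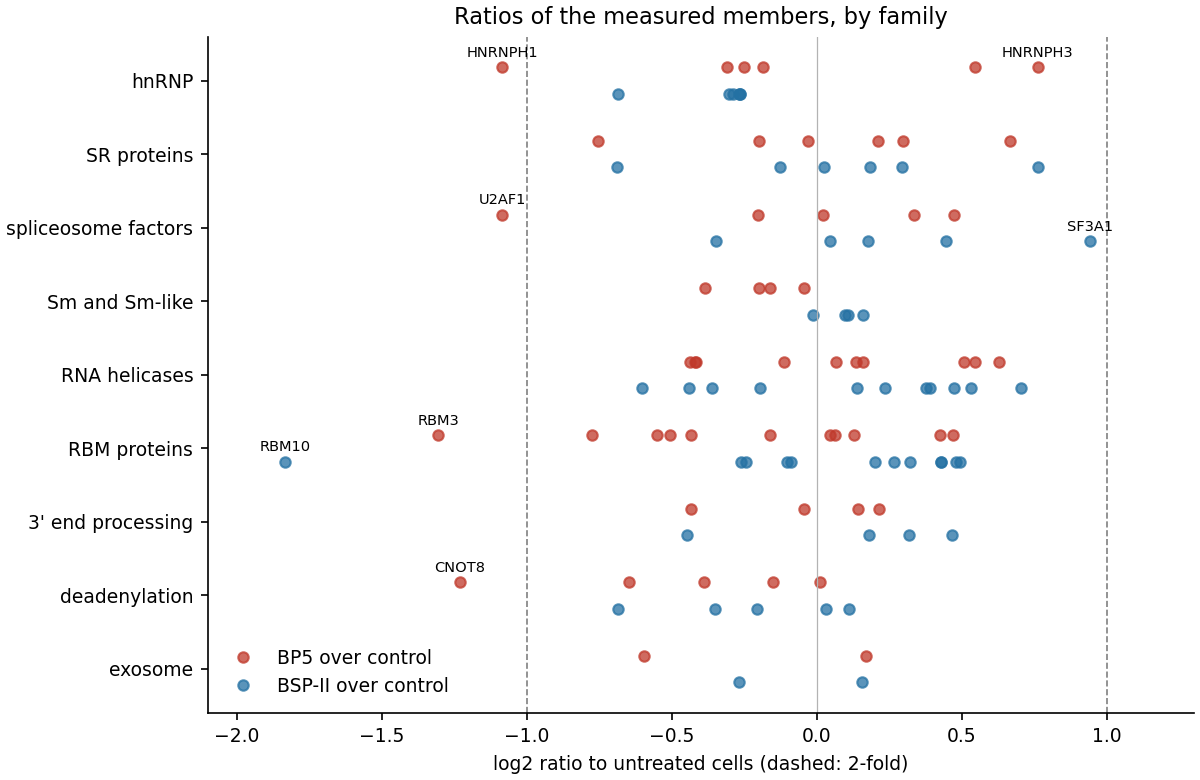
Log2 ratio to untreated cells of each measured member, by family, for BP5 (red, upper row of each family) and BSP-II (blue, lower row); each point is 1 gene on 1 pair of arrays and dashed lines mark 2-fold. Past the lower line lie RBM3, CNOT8, U2AF1 and HNRNPH1 with BP5 and RBM10 with BSP-II, and no gene lies past the upper line.

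The ratios of neighbouring probes differed between regions of the array. For each probe the median log2 ratio of the measured probes around it (10 rows and 3 columns each way, 20 to 71 probes at the members) was taken as the shift of its surroundings, and the ratio minus this shift is called the position-corrected ratio. Probes of any brightness count among the surroundings. The shift can differ among probes of like signal, as given for CNOT7 and other members below. With BP5 the shift at the members ran from -1.47 (RBM3) to 0.34 (SRSF1), and with BSP-II from -0.28 (SRSF5A) to 0.69 (RBM10). After this correction 1 member, CNOT8, remained at least 2-fold lower with BP5 (2.21% of all genes) and 0 were higher (2.95% of all genes, 5.16% in either direction). With BSP-II RBM10 remained lower (1.80% of all genes) and 0 were higher (2.52% of all genes, 4.32% in either direction). The members' median became 0.04 with BP5 (-0.04 over all genes) and 0.01 with BSP-II (-0.01 over all genes). The ± given with a ratio below is the scanner software's error for the spots on both arrays, with a median of 0.20 over the members. It covers neither culture nor labelling.

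**Figure D2:**
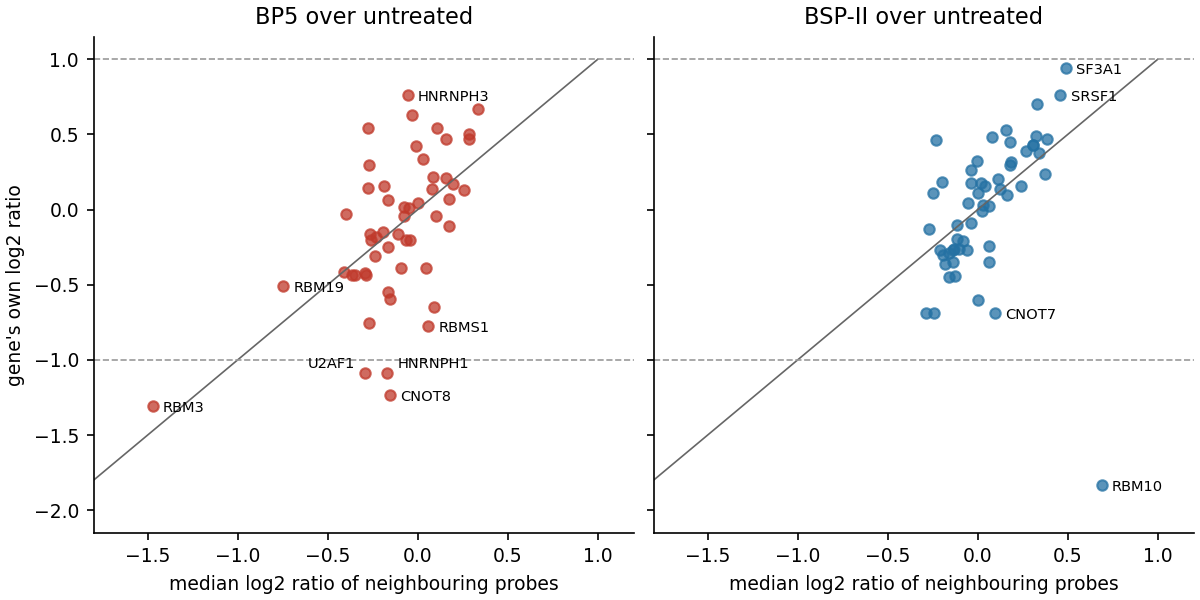
Each member's own log2 ratio (vertical axis) against the median log2 ratio of the probes around it (horizontal axis), for BP5 (left) and BSP-II (right); the diagonal marks a ratio equal to that of the surroundings and dashed lines mark 2-fold. RBM3 and RBM19 lie near the diagonal with BP5, at surroundings of -1.47 and -0.75, while CNOT8 with BP5 and RBM10 with BSP-II lie well below it.

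U2AF1, the small subunit of U2AF that contacts the AG dinucleotide at the 3′ splice site, read 1335 with BP5, 1920 with BSP-II and 4035 in untreated cells. The log2 ratio was -1.08 ± 0.20 with BP5 (2.12-fold lower) and -0.35 ± 0.20 with BSP-II. Position-corrected values were -0.79 and -0.21, so U2AF1 was no longer past 2-fold with BP5. In all 6 alternative ways of processing that could change this ratio (normexp, 2 other scalings, the authors' values and both windows of surroundings) U2AF1 was short of 2-fold with BP5, and the value nearest to 0 was -0.66. Here and below these 6 are not separate checks. The authors' values lay close to those with quantile normalization, and both windows use the same method. The percentile over detected probes moves all genes of a comparison by the same amount.

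SF3A1, a subunit of the SF3a complex of the U2 small nuclear ribonucleoprotein, had the highest uncorrected ratio of any measured member with BSP-II. Its signal was 9489 with BP5, 11330 with BSP-II and 9754 in untreated cells, which after scaling gave log2 ratios of 0.47 ± 0.20 with BP5 and 0.94 ± 0.20 with BSP-II. The probes around it had shifts of 0.28 and 0.49, and the corrected ratios were 0.19 and 0.45. SF3A2, its partner in the same complex, had ratios of 0.34 and 0.45 (corrected 0.30 and 0.27). PRPF19, the ubiquitin ligase of the Prp19 complex, and PRPF3, a U4/U6 protein, lay between -0.20 and 0.18 in both comparisons.

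The measured genes with SNRP and LSM names were less than 2-fold apart between arrays. Most of them encode Sm or Sm-like proteins, which form or resemble the ring around spliceosomal RNAs. SNRPE read 24967 with BP5, 25975 with BSP-II and 39829 in untreated cells, ratios of -0.16 and 0.11 after scaling. SNRPD3 had a ratio of -0.39 with BP5 and -0.01 with BSP-II. SNRPB2, a protein of the U2 particle, and LSM12 stayed between -0.20 and 0.16. With BP5 the family's 4 measured members had a median of -0.18 and with BSP-II of 0.10.

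Among the SR proteins, SRSF1 had the highest and SRSF5A the lowest uncorrected ratio with both peptides. After position correction SRSF5A was still the lowest and SRSF2 was the highest, at 0.57 with BP5 and 0.38 with BSP-II. SRSF1, which was first described as a general splicing factor, read 31976 with BP5, 29469 with BSP-II and 28701 in untreated cells. Its log2 ratios were 0.67 ± 0.20 and 0.76 ± 0.20, and 0.33 and 0.31 after position correction. SRSF5A read 11724 with BP5, 10586 with BSP-II and 28197 in untreated cells, with log2 ratios of -0.75 ± 0.20 and -0.69 ± 0.20 (corrected -0.49 and -0.40). The probe of SRSF5, a separate entry in the gene table, had ratios of 0.21 and 0.30. Names as close as these can mark transcripts of like sequence, and how far the probes tell them apart was not tested. SRSF2, SRSF6 and SRSF10 had ratios between -0.20 and 0.30 with BP5 and between -0.13 and 0.18 with BSP-II.

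The hnRNPs had ratios of both signs with BP5. HNRNPH1, a regulator of exon inclusion that binds runs of G, read 6009 with BP5, 6833 with BSP-II and 18157 in untreated cells. Both peptide arrays were below the control, with log2 ratios of -1.08 ± 0.20 for BP5 (2.12-fold lower) and -0.68 ± 0.20 for BSP-II. Corrected for position these were -0.91 and -0.44, so HNRNPH1 was no longer past 2-fold with BP5. It was short of 2-fold with BP5 in all 6 alternatives that could change the ratio, and the value nearest to 0 was -0.68.

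HNRNPH3, a relative of HNRNPH1, went the other way with BP5, reading 7938 with BP5, 3357 with BSP-II and 6676 in untreated cells. The log2 ratio was 0.76 ± 0.20 with BP5 (1.69-fold higher) and -0.27 ± 0.20 with BSP-II. HNRNPA2B1, which packages nascent transcripts and sorts RNAs, read 2866, 1371 and 2798 on the BP5, BSP-II and control arrays, with ratios of 0.55 ± 0.20 and -0.30 ± 0.20. Position correction left both higher with BP5 (0.82 for each) and near or below 0 with BSP-II (-0.21 and -0.11). HNRNPAB, HNRNPR and HNRNPKL had ratios between -0.31 and -0.18 with BP5. After position correction these were 0.05, -0.09 and -0.07.

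With BSP-II all 6 hnRNPs had negative ratios, from -0.68 (HNRNPH1) to -0.26 (HNRNPAB), and 0 of them lay above the median of all genes. With BP5, 2 of 6 lay above it. The 6 hnRNP probes all sat in columns 66 to 83 of the array's 85 columns. In columns 69 to 85 the 3115 probes measured with BSP-II had a median log2 ratio of -0.17, whereas the 2916 probes in columns 1 to 17 had a median of 0.16. After position correction the 6 ratios ran from -0.44 to -0.06 with BSP-II, and again 0 lay above the median of all genes (-0.01). The surroundings of all 6 had negative medians with BSP-II, from -0.24 to -0.06, each smaller in size than the gene's own ratio. Subtraction therefore had to bring each ratio nearer to 0, and the part of position in these ratios was not tested.

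**Figure D3:**
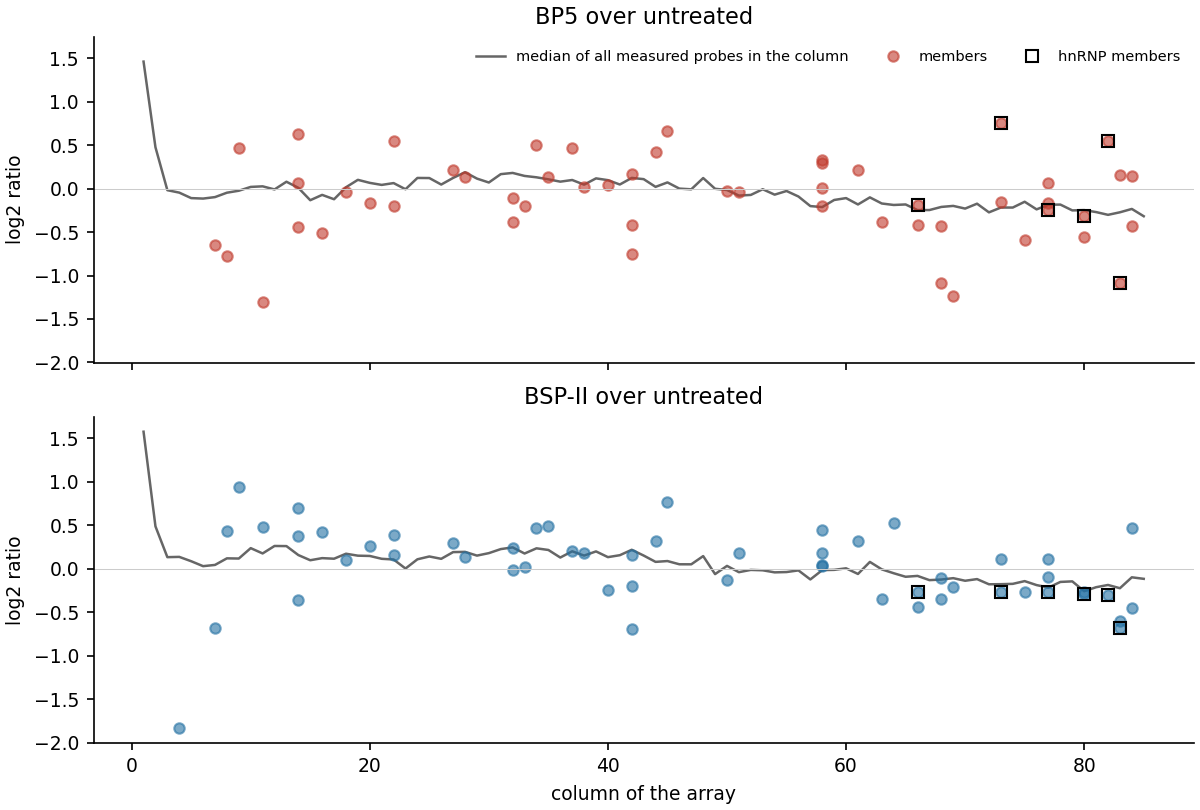
Log2 ratio of each member (points, squares around hnRNPs) by the column of the array its probe lies in, with the median of all measured probes per column as a line, for BP5 (top) and BSP-II (bottom). The 6 hnRNPs lie in columns 66 to 83, at the right of the array, where all probes of columns 69 to 85 had medians of -0.23 with BP5 and -0.17 with BSP-II.

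RBM3, an RNA-binding protein induced by mild cold in mammals, had the lowest ratio with BP5 among the 53 members measured on both arrays. Its signal was 6334 with BP5, 18825 with BSP-II and 22307 in untreated cells, so the BP5 array stood apart from the other two. The log2 ratio was -1.30 ± 0.20 with BP5 (2.47-fold lower) and 0.48 ± 0.20 with BSP-II. On the BP5 comparison 26 measured probes around RBM3 had a median of -1.47, with quartiles of -1.71 and -0.95, and the position-corrected ratio of RBM3 was 0.17. With BSP-II the 39 probes around it had a median of 0.08 and the corrected ratio was 0.40. RBM19, a nucleolar protein of ribosome assembly, also lay in low surroundings with BP5 (-0.75) and had a ratio of -0.51 before and 0.24 after correction.

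RBM10, a regulator of alternative exons, was low with both peptides. It read 48.7 with BP5, which is not well above background, 75.5 with BSP-II and 444.9 in untreated cells. Both comparisons share this control reading. With BSP-II the log2 ratio was -1.83 ± 0.25 (3.56-fold lower). With BP5 only an approximate bound can be given, 6.36-fold lower, taken against the dimmest probe called well above background on that array (49.1). An undetected spot can have a higher limit than that probe, so the fold may be smaller. The probe lies in column 4, and the probes around it were shifted upward, by 0.48 over 44 probes with BP5 and by 0.69 over 48 probes with BSP-II. These surroundings reach column 1, whose median over all its measured probes was 1.46 with BP5 and 1.58 with BSP-II. Column 4 as a whole had medians of -0.05 and 0.14. The ratio of RBM10 thus had the opposite sign to its surroundings, and its position-corrected ratio with BSP-II was -2.52. With a narrower window (5 rows and 2 columns each way), which does not reach column 1, the corrected ratio was -2.43. In the 6 alternatives that could change it the ratio with BSP-II was past 2-fold, from -2.52 to -1.16. Both peptide readings are close to the detection limit of these arrays.

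**Figure D4:**
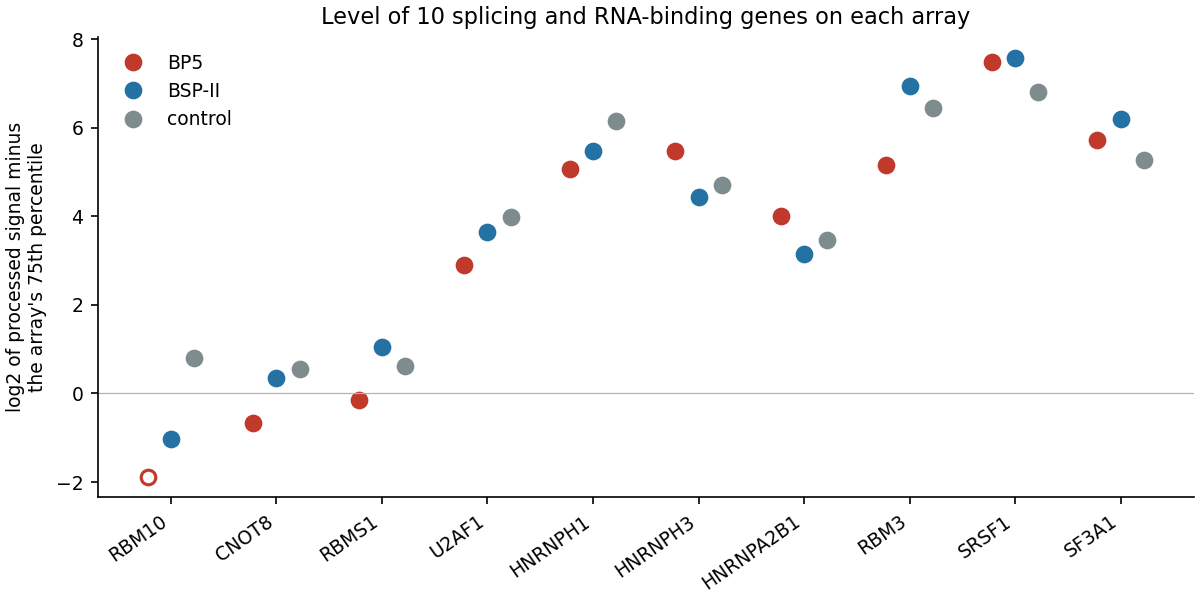
Level of 10 members on the BP5 (red), BSP-II (blue) and control (grey) arrays, 1 array each, as the log2 processed signal relative to the 75th percentile of that array; the open circle marks a reading not well above background. Levels are not corrected for position, and they can be set side by side between arrays for 1 gene but not between genes. RBM10 is lower with BP5 and BSP-II than in untreated cells while HNRNPH3 and HNRNPA2B1 are highest with BP5. RBM3 is low with BP5, where the probes around it had a median log2 ratio to untreated cells of -1.47.

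RBMS1, a single-stranded nucleic acid-binding protein, read 160.1 with BP5, 318.0 with BSP-II and 390.4 in untreated cells. The log2 ratio was -0.77 ± 0.22 with BP5 and 0.43 ± 0.21 with BSP-II, and after position correction -0.83 and 0.12. The remaining RBM proteins measured with both peptides (RBM6, RBM7, RBM12, RBM12B, RBM22, RBM45, RBM48 and RBMXL1) had ratios between -0.55 and 0.47 with BP5 and between -0.26 and 0.49 with BSP-II. The 0.47 belongs to RBM12, which was dim (86.5 with BP5, 62.0 with BSP-II and 89.1 in untreated cells). With normexp its ratio with BP5 was -0.06. RBM7, an adaptor of the nuclear exosome, had a ratio of 0.42 with BP5 and 0.32 with BSP-II. After correction these were 0.43 and 0.33.

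No RNA helicase passed 2-fold. The 10 measured with BP5 ran from -0.44 (DDX10) to 0.63 (DHX38), and the 11 measured with BSP-II from -0.60 (DDX1) to 0.70 (DHX38). DHX38, the helicase of the second splicing step known in yeast as Prp16, read 1416, 1288 and 1307 with BP5, with BSP-II and in untreated cells. Its ratios of 0.63 ± 0.20 and 0.70 ± 0.20 became 0.66 and 0.38 after position correction. DDX5, a helicase that also acts as a transcriptional coregulator, read 60177, 50699 and 60394 and had ratios of 0.51 and 0.47 (corrected 0.22 and 0.09). With BSP-II DDX55 and DDX10 had ratios of -0.44 and -0.36 (corrected -0.31 and -0.18). DDX3X, an RNA helicase with roles in translation initiation, had ratios of 0.55 and 0.39 (corrected 0.44 and 0.12). DDX1 read 606.3 with BP5, 308.2 with BSP-II and 774.2 in untreated cells. Its log2 ratios were 0.16 ± 0.21 and -0.60 ± 0.21 (corrected 0.35 and -0.61).

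No 3′ end factor passed 2-fold. CSTF2, the 64 kDa cleavage stimulation factor whose level is known to change when B cells turn to antibody secretion in mice, read 11271 with BP5, 11340 with BSP-II and 16551 in untreated cells. Its log2 ratios were -0.04 ± 0.20 and 0.18 ± 0.20, and 0.04 and 0.22 after position correction. CSTF3, its partner in the same complex, had ratios of 0.14 ± 0.23 with BP5 and 0.46 ± 0.22 with BSP-II. After correction these were 0.42 and 0.70, the second being the highest corrected ratio of any measured member with BSP-II. CPSF6 had ratios of 0.21 and 0.32 (corrected 0.13 and 0.13), and CPSF2 of -0.43 and -0.45 (corrected -0.15 and -0.29). CPSF2 and CSTF3 are the only 2 members in the outermost 2 columns of either side.

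Within the deadenylase, CNOT8 and CNOT7, which encode closely related catalytic subunits, both read lower with BP5. CNOT8 read 111.7 with BP5, 196.1 with BSP-II and 374.1 in untreated cells. The log2 ratio was -1.23 ± 0.24 with BP5 (2.35-fold lower) and -0.21 ± 0.21 with BSP-II. The 46 probes around it had a median of -0.15 with BP5, and the corrected ratio of -1.08 was still past 2-fold. With normexp background correction it was -0.61. Among the 53 members with a measured ratio for BP5, CNOT8 was the only one past 2-fold both before and after position correction.

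CNOT7 read 6121 with BP5, 5146 with BSP-II and 13683 in untreated cells, with ratios of -0.65 ± 0.20 and -0.69 ± 0.20 (corrected -0.74 and -0.78). Both were short of 2-fold. The probes around CNOT7 had a median of 0.09 with each peptide. For 17 probes of like signal (within 4-fold on the control array, 20 rows and 6 columns each way) the median was -0.28 with BP5 and -0.01 with BSP-II. The corrected ratios of CNOT7 thus depend on which neighbours are taken. This holds for some other members too. Around HNRNPH3 with BP5 the median was -0.06 over the surroundings and -0.27 over 57 probes of like signal. Around RBM19 for BP5 over BSP-II these were -1.06 and -0.66 (46 probes). For CNOT8 with BP5 they were -0.15 and -0.14 (96 probes). CNOT2, a structural subunit, had ratios of -0.39 and -0.35, and CNOT9 and CNOT10 lay between -0.15 and 0.11. Of the exosome, EXOSC10, its nuclear nuclease, had ratios of -0.59 and -0.27 (corrected -0.44 and -0.13). EXOSC9, a core subunit, had ratios of 0.17 and 0.16, which became -0.03 and -0.08 after correction.

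BP5 was compared with BSP-II directly, on 2 arrays of the same scan. Their doses differed, so peptide and dose cannot be told apart. Of 53 members measured on both arrays, HNRNPH3 was at least 2-fold higher with BP5 than with BSP-II (0.117% of 2569 genes were), and RBM3, RBMS1 and CNOT8 were at least 2-fold lower (1.48% of genes, and 1.60% in either direction). The members' median was -0.10 and that of all genes -0.11. After position correction HNRNPH3 (1.03; 0.234% of genes were higher) and CNOT8 (2.01-fold lower; 0.506% of genes were lower) were past 2-fold, as were 0.740% of genes in either direction. With a narrower window for the surroundings (5 rows and 2 columns each way, chosen after seeing the data) 0 members were, HNRNPH3 being at 0.93 and CNOT8 at -0.94.

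RBM3 had the lowest ratio between the peptides, -1.79 ± 0.20, and 26 measured probes around it had a median of -1.47, leaving -0.32. RBM19 had -0.93 before and 0.13 after correction. RBMS1 had -1.20 ± 0.22 before and -0.97 after. HNRNPH3 had 1.03 ± 0.20 and the same value after correction. Next came HNRNPA2B1 (0.85 ± 0.20, corrected 0.98) and DDX1 (0.76 ± 0.21, corrected 0.99), both short of 2-fold, and then RBM12B (0.29) and RBM12 (0.27). U2AF1 (-0.74 ± 0.20, corrected -0.61) and SF3A1 (-0.47, corrected -0.24) were lower with BP5 than with BSP-II.

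**Figure D5:**
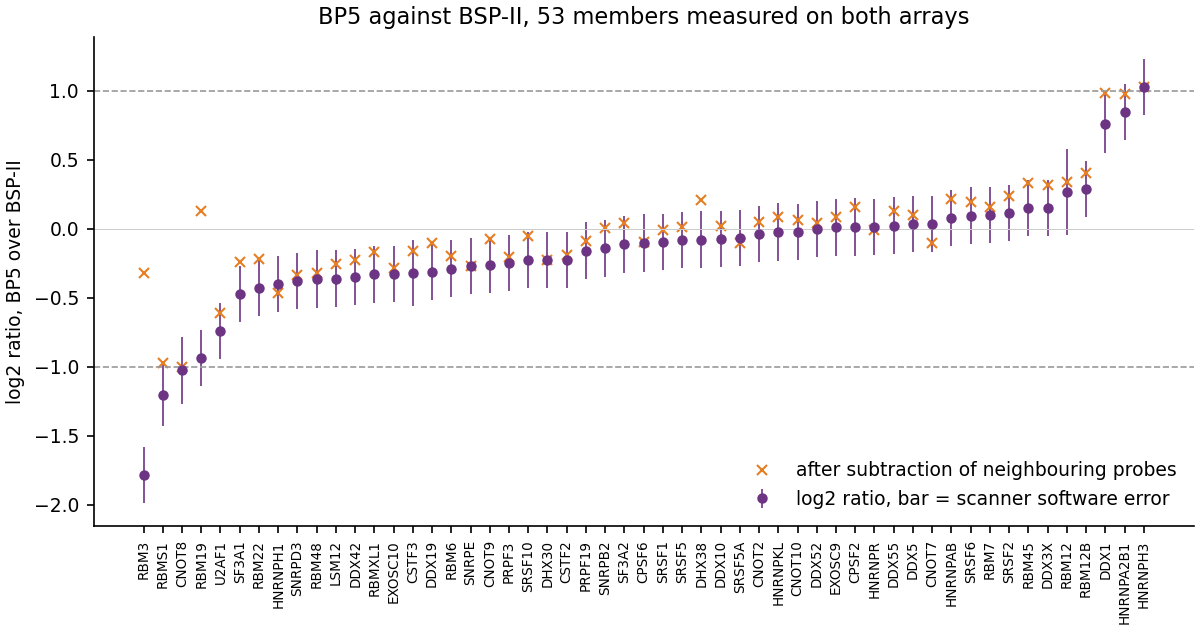
Log2 ratio of BP5 over BSP-II for the 53 members measured on both arrays, ordered by that ratio; circles with bars give the ratio and the scanner software's error, crosses the ratio after subtraction of the surroundings, and dashed lines 2-fold. The cross lies far from the circle for RBM3 (-0.32 against -1.79) and RBM19 (0.13 against -0.93) and close to it for CNOT8 and HNRNPH3.

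On a list of 179 further genes (splicing cofactors, mRNA export, nonsense-mediated decay, decapping, microRNA processing and others), 62 had a probe and 58 were measured in each comparison. With BP5, 1 of 58 was at least 2-fold lower and 0 higher (3.76% and 2.91% of all genes). With BSP-II, 1 of 58 was also lower and 0 higher (2.14% and 2.79% of all genes). The gene was FUBP1, a single-stranded DNA- and RNA-binding protein, in both. FUBP1 read 144.7 with BP5, 126.3 with BSP-II and 496.3 in untreated cells, with log2 ratios of -1.27 and -1.25, and of -1.66 and -1.79 after position correction. Both ratios of FUBP1 share the control reading of 496.3, so the likeness of the 2 peptides is not a separate check. Its probe lies in row 112 and column 8, close to that of RBM10 (row 128, column 4) near the left edge of the array. The surroundings of both genes had positive medians with each peptide. Of the members nearby, SF3A1 (row 122, column 9) had ratios of 0.47 with BP5 and 0.94 with BSP-II. DHX38 (row 118, column 14) had 0.63 and 0.70, and RBMS1 (row 88, column 8) had -0.77 and 0.43. Whether this shared region plays a part in the readings of RBM10 and FUBP1 was not tested. The list's median log2 ratio was -0.01 with BP5 (-0.09 over all genes) and 0.01 with BSP-II (0.01 over all genes). Between the peptides 0 of 58 were past 2-fold (1.60% of all genes).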

How the data were processed

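The deposited intensity of each spot came from Agilent Feature Extraction 10.5.1.1, per the file headers: background-subtracted, spatially detrended, dim spots set to a floor, not normalized between arrays. Flags of 0 or 1 from the same files, deposited by the authors, mark detection, saturation and outliers. The authors also deposited log2 values of 20085 probes, with medians of 7.75 in each column and the same highest value (17.7) on all 3 arrays; their normalization is not given in the sources used, and they were used only as an alternative.

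Control spots (1417) and 153 probes with an outlier flag were left out of 43451 spots. The measure was the log2 processed signal relative to the 75th percentile of that array (178.8 with BP5, 154.1 with BSP-II, 254.8 in untreated cells), and a ratio needed both arrays well above background. Symbols came from unversioned RefSeq accessions looked up in the gene table of GRCg7b, for 4000 of 42034 probes; the arrays were designed on galGal3, so no coordinates are given. The files hold no probe sequences and none are printed. Surroundings needed at least 10 measured probes. Where a gene was detected on 1 array only, the bound was taken against the higher of its own reading and the lowest reading well above background on the other array.

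The genes and lists were chosen with earlier results of these data known. Named were members past 2-fold, the 10 largest ratios each way per peptide, bounds of 2-fold or more, the extremes of each family and between the peptides, and genes whose call ended after position correction. Signals were not ranked between probes, so the brightest member per family, also in the rule, is not singled out. Alternatives were normexp (limma 3.58.1, offset 50, on median spot and background signals, since the files have no mean spot signal), a percentile over probes detected on all arrays, quantile normalization, the authors' values, no filter on dim probes, subtraction of surroundings in 2 windows, leaving out the outermost columns, and a 1.5-fold threshold. The scripts were tested on simulated data.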

Additional observations from a re-analysis of the deposited data

How the results depend on the processing

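No paired analysis was possible because each group has 1 array. The number of arrays and signal over background limit all values here, and dim genes are the least precise. By the scanner software's error these were DDX47 (0.38), RBM12 (0.28) and RBM10 (0.25) with BSP-II. With BP5 they were RBM12 (0.28) and CNOT8 (0.24). The count of members past 2-fold with BP5, 4 as reported, was 1 with normexp background correction (HNRNPH3, higher; 2.91% of all genes passed), 2 each with the percentile over probes detected on all arrays, with quantiles equalised and in the values the authors deposited (RBM3 and CNOT8; 6.59%, 6.17% and 6.17% of all genes), 9 without the filter on dim probes (14.8% of 61 members and 24.5% of all genes), 11 at 1.5-fold (19.1% of all genes), and 1 (CNOT8) after subtraction of the surroundings in the wider (5.16%) or narrower window (5.03%). With BSP-II the count of 1 became 3 with normexp (SF3A1 and SRSF1 added; 3.17% of all genes), 4 without the filter (6.56% of members and 22.7% of all genes) and 8 at 1.5-fold, where 16.8% of all genes passed. Between the peptides the count of 4 became 2 with normexp (1.17% of all genes), 3 with the percentile over detected probes (CNOT8 lost; 1.56%), 5 without the filter (3.71%), 2 and 0 after subtraction in the wider and narrower window (0.740% and 0.636%), and 8 at 1.5-fold (7.90% of all genes). Without the filter, readings at each array's floor enter the ratios, as for RBM24 and DDX27, counted as higher with BP5. RBM3 with BP5 reversed after subtraction of the surroundings, to 0.17 and, in the narrower window, 0.0788. The members' median with BP5 moved to 0.18 with normexp, where the median of all genes was 0.11; it also turned positive with the percentile over detected probes (0.0168), quantiles equalised (0.0466), the authors' values (0.0449) and the wider subtraction (0.0412). The percentile over detected probes moved the median of all genes with BP5 to 0.04 and left the members' distance from it at -0.02. With BSP-II the members' median was 0.28 with normexp (0.17 over all genes). In the narrower window it turned negative, at -0.03 (-0.02 over all genes), and otherwise it lay between 0.01 and 0.11. The causes of these changes were not tested.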
